A study of Arabidopsis thaliana with 9 samples.

Results

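The genes described here are 33 genes of the auxin response pathway in Arabidopsis thaliana seedlings. They were listed by locus identifier from the 37898 genes in the deposited expression table, and no measured value served as a criterion. Earlier results of these data were known when the list was made. Of the 33 genes, 15 encode Aux/IAA repressors, 12 encode auxin response factors (ARFs), 3 encode the F-box auxin receptors TIR1, AFB2 and AFB3, and 3 encode GH3 enzymes that attach amino acids to auxin. Polyadenylated RNA of whole seedlings 2 weeks old was sequenced in 3 genotypes of 3 libraries each, all with the treatment labelled Mock. The first genotype carried nrpe1-11, a mutant allele of the gene for the largest subunit of RNA polymerase V. The second carried nrpd1-3, a mutant allele of the gene for the largest subunit of RNA polymerase IV. The wild type was Col-0, the ecotype labelled for all 9 libraries. Both polymerases are specific to plants and are known for RNA-directed DNA methylation, in which polymerase IV starts the small RNAs and polymerase V makes the scaffold transcripts. Each mutant is represented by 1 allele. Whether replicate libraries were made from different plants or pools is not stated in the labels, and the p-values here reflect just the spread among the sequenced libraries.

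Auxin acts by bringing a TIR1/AFB receptor and an Aux/IAA protein together, upon which the Aux/IAA protein is marked for destruction by the SCF ubiquitin ligase to which the receptor belongs. Aux/IAA proteins otherwise hold ARF transcription factors inactive on DNA with the help of TOPLESS co-repressors. Activator ARFs then switch on a fast set of genes, among them many Aux/IAA genes themselves, GH3 genes and SAUR genes, so that the repressors and the GH3 enzymes, which lower the level of free auxin, form feedback loops. In seedlings the pathway is known for its parts in root growth, lateral root formation and bending toward light and gravity. Small RNAs set a further layer: miR393 targets receptor mRNAs, miR160 and miR167 target ARF mRNAs, and trans-acting siRNAs made from TAS3 target ARF2, ETT (also called ARF3) and ARF4.

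The small RNA sites carried by these genes are shown because they tie the receptors and 5 of the ARFs to a post-transcriptional input. The mature miRNA sequences were read from the TAIR10.1 reference genome at the RefSeq annotation's positions and are written 5′ to 3′, with the seed (bases 2 to 8) in capitals.
ath-miR393a-5p: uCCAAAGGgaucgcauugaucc
ath-miR160a-5p: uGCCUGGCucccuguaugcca
ath-miR167a-5p: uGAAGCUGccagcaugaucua
Each gene named as a target held its best match in the coding sequence. In the sites, also written 5′ to 3′ as RNA, capitals mark bases with a Watson-Crick partner in the miRNA.
TIR1: GagaCAAUGCGAUCCCUUUGGA
AFB2: GaAaCAAUGCGAUCCCUUUGGA
AFB3: GaAaCAAUGCGAUCCCUUUGGA
ARF10: aGGaAUACAGGGAGCCAGGCA
ARF16: gGGuuUACAGGGAGCCAGGCA
ARF17: UGGCAUgCAGGGAGCCAGGCA
ARF6: gAGAUCAgGCUGGCAGCUUgu
ARF8: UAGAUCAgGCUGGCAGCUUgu
The miR393 sites lie at chr3:23273727-23273748 (minus strand) in TIR1, chr3:9870237-9870258 (plus strand) in AFB2 and chr1:4369085-4369106 (minus strand) in AFB3. They paired at 19 of 22 bases in TIR1, with 1 further G:U pair, and at 20 of 22 in AFB2 and AFB3, whose sites are identical to each other. The miR160 sites lie at chr2:12115741-12115761 (plus strand) in ARF10, chr4:14704141-14704161 (minus strand) in ARF16 and chr1:29274189-29274209 (plus strand) in ARF17. They paired at 19, 18 and 20 of 21 bases, with 1 G:U pair each in ARF16 and ARF17. The miR167 sites lie at chr1:10686478-10686498 (minus strand) in ARF6 and chr5:14633841-14633861 (plus strand) in ARF8. They paired at 17 and 18 of 21 bases. These matches describe the sequence and are not measurements of cleavage.

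Expression was given as FPKM, fragments scaled to transcript length and to sequencing depth, so that levels can be compared between genes. The spacing of the low values put the aligned sequence at 1.01 to 1.25 gigabases per library. Only a preset range of spacings was searched, so a depth far outside these values could not have been found. In each library 16802 to 17604 genes reached 1 FPKM. A gene was tested if it had at least 1 FPKM in at least 3 of 9 libraries, which 18212 genes did. Changes are differences of mean log2(FPKM + 1), which makes the change of a low-FPKM gene look smaller, and a call means an adjusted p under 0.05 in limma, adjusted over all tested genes. The gene of the largest polymerase V subunit, NRPE1, had 0.624, 0.254 and 0.339 FPKM in nrpe1-11, against 0.831, 0.843 and 0.863 FPKM in Col-0 (log2 change -0.40, adjusted p = 0.196 in limma). Against nrpd1-3, NRPE1 was called lower in nrpe1-11 (log2 change -0.71, adjusted p = 0.037 in limma). Its polymerase IV counterpart, NRPD1, had 0.674, 0.670 and 0.948 FPKM in the libraries labelled nrpd1-3, against 0.565, 0.489 and 1.06 FPKM in Col-0, so its RNA level does not check that label. In nrpe1-11 NRPD1 had 1.56, 1.98 and 2.30 FPKM. That was called higher than Col-0 (0.80, adjusted p = 0.019 in limma) and than nrpd1-3 (0.74, adjusted p = 0.036 in limma). The first principal component (47.9% of the variance) set the nrpe1-11 libraries apart at -42.8 to -39.6, with the other 6 libraries at 17.1 to 27.1. The second (15.5%) set Col-0 replicate 2 apart at 38.5, with the others at -22.3 to 6.62. Col-0 replicate 2 also had the highest share of FPKM in ribosomal RNA (21.4%, lowest of the 9 libraries 14.2%) and the lowest in protein-coding genes (67.0%, highest 80.9%), so results that change without it are given with and without it.

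Across the 9 libraries the pathway was represented at very unequal levels. IAA7 was the most abundant member with a mean of 110.8 FPKM, followed by IAA16 with 84.8 FPKM, IAA9 with 77.3 FPKM and IAA2 with 52.8 FPKM. These levels were per length of transcript, and IAA7 alone made up 23.9% of the summed Aux/IAA level. Among ARFs, ARF2, a repressor-type ARF known for its effects on organ size and ageing, stood at 50.3 FPKM and made up 44.6% of the ARF sum. The next ARF, ARF1, stood at 16.0 FPKM, and 8 of the 12 ARFs were below 5 FPKM. TIR1 (25.1 FPKM) made up 49.5% of the sum of the 3 receptors, ahead of AFB2 (14.2 FPKM) and AFB3 (11.3 FPKM). GH3.5, named WES1 in the annotation, and GH3.6, named DFL1, were close to each other at 13.2 and 12.8 FPKM, whereas GH3.3 was at 4.45 FPKM. At the bottom, IAA5 was listed at 0, 0.816 and 0 FPKM in nrpe1-11, 0, 0.190 and 0 FPKM in nrpd1-3, and 1.38, 0 and 0.322 FPKM in Col-0. It was the single member that did not pass the expression filter, so the tests below cover 32 of the 33 genes.

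In nrpe1-11 seedlings, compared with Col-0, the pathway did not shift as a whole: a few genes rose, a few fell and most were not called. The receptor TIR1, the repressors IAA16 and SHY2 and the factor ARF1 rose, while the repressor IAA1 and the conjugating enzyme GH3.3 fell. That is 4 higher and 2 lower of 32 tested members (18.8%), where 21.7% of all tested genes were called, so the share of members called was near the background. By direction, 14.2% of all tested genes were called higher and 7.54% lower. Libraries of nrpe1-11 and of Col-0 were fully apart for 10 higher and 3 lower members, against 28.7% and 10.7% of all tested genes. The median change of the 32 members was 0.18, beside a median of 0.17 over all tested genes, and 17 of the 32 lay above that median gene. Because the tests compare with 0, calls in the higher direction include this shift of all genes: the share of calls that were higher was 65.3% over all genes as deposited, 35.2% after median-ratio rescaling, 46.7% after quantile normalization and 53.3% without Col-0 replicate 2. Median-ratio rescaling and quantile normalization each gave 2 members higher (IAA16 and TIR1) and 5 lower (IAA1, IAA2, IAA8, GH3.3 and WES1). Without Col-0 replicate 2 there were 2 higher (IAA16 and TIR1) and 4 lower (IAA1, IAA2, GH3.3 and WES1).

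**Figure D1:**
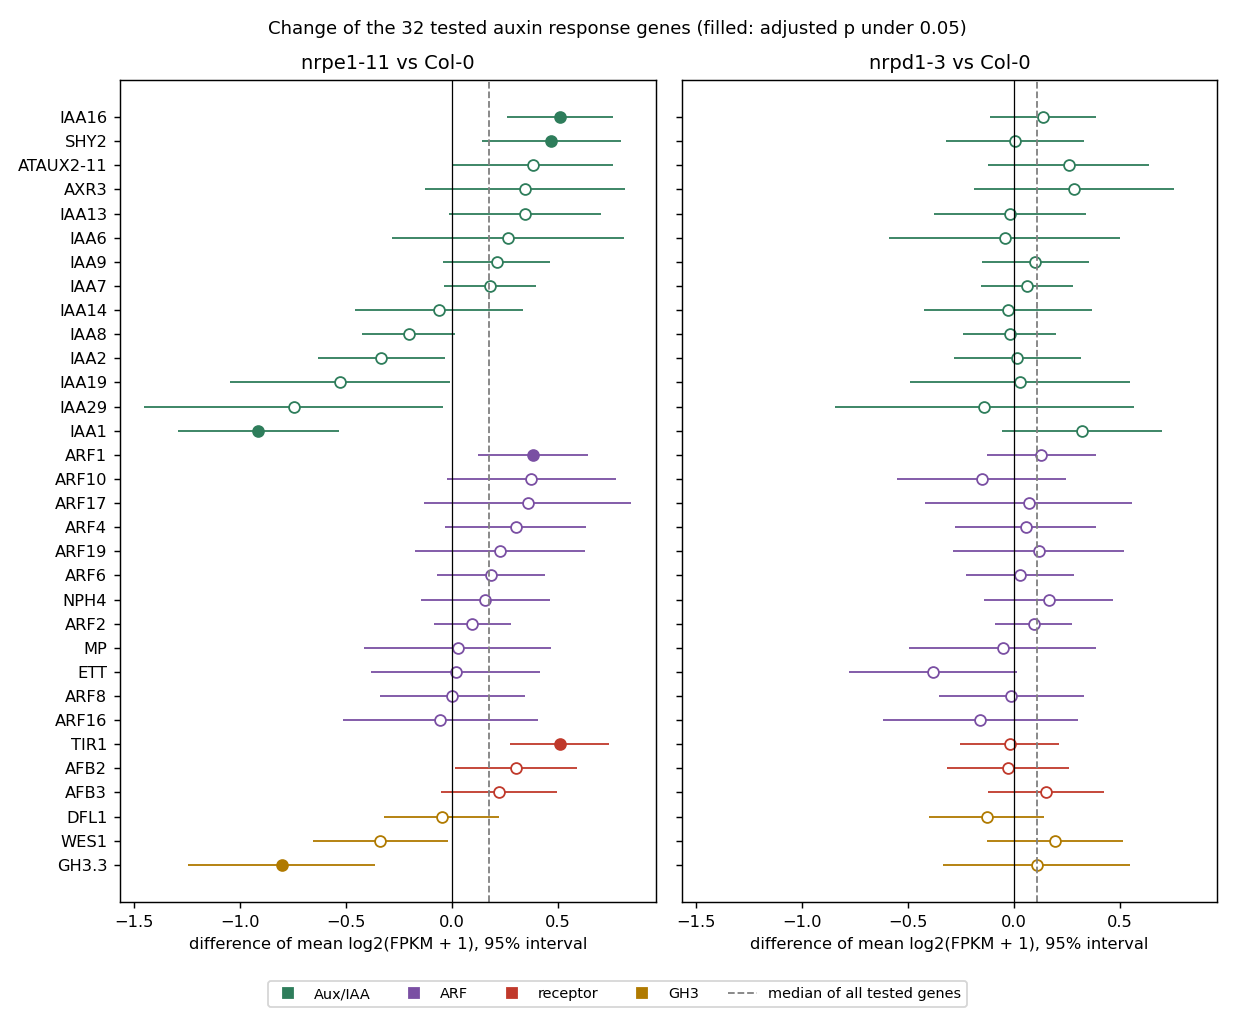
Difference of mean log2(FPKM + 1) for the 32 tested auxin response genes, nrpe1-11 against Col-0 on the left and nrpd1-3 against Col-0 on the right, with 95% intervals; colours mark the gene class, filled points an adjusted p under 0.05 in limma and the dashed line the median of all tested genes. On the left the values run from -0.92 (IAA1) to 0.51 (IAA16 and TIR1), and 6 are filled, while on the right none is filled.

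Of the 15 Aux/IAA repressor genes, 14 were tested in nrpe1-11 against Col-0, with 2 higher, 1 lower and a median change of 0.19. The share called was 21.4%, near the 21.7% of all tested genes, whose median change was 0.17. The Aux/IAA median was 0.092 without Col-0 replicate 2, 0.12 without nrpe1-11 replicate 2 and 0.01 after median-ratio rescaling. IAA1 (AT4G14560, chr4:8360996-8362033, plus strand), an Aux/IAA gene known for its fast induction by auxin, was at 2.79, 4.74 and 4.08 FPKM in nrpe1-11, against 7.60, 7.12 and 9.61 FPKM in Col-0. All 3 nrpe1-11 libraries were lower than all 3 of Col-0, and the nrpe1-11 mean was 0.477 of the Col-0 mean. The change in IAA1 was -0.92 on the log2(FPKM + 1) scale (SE 0.178, adjusted p = 0.0020 in limma), or -1.09 relative to the median gene. Under the alternatives, including each library left out in turn, it lay between -1.07 and -0.75, and the call was lost only when a change of at least 2-fold was required. In whole-seedling RNA, fewer cells of a type and less RNA per cell cannot be told apart, here and for the other members.

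IAA16 and SHY2 went the other way. IAA16 (AT3G04730, chr3:1288155-1290891, minus strand), an abundant Aux/IAA repressor, was at 105.61, 100.01 and 102.03 FPKM in nrpe1-11, against 77.1, 58.4 and 82.0 FPKM in Col-0. The groups did not overlap, and Col-0 replicate 2 was the lowest of the 9 libraries. IAA16 rose by 0.51 (SE 0.117, adjusted p = 0.0063 in limma), or 0.335 relative to the median gene, and by 0.36 without Col-0 replicate 2, still called. SHY2 (AT1G04240, chr1:1128149-1129689, minus strand), also called IAA3 and known for limiting the size of the root meristem, was at 25.3, 20.3 and 22.2 FPKM in nrpe1-11, against 16.9, 15.7 and 15.5 FPKM in Col-0. The nrpe1-11 libraries were again all higher, with a change of 0.47 (SE 0.154, adjusted p = 0.042 in limma). That call was lost when any 1 of the 6 libraries was left out (0.39 to 0.54) and at 0.29 after median-ratio rescaling, and SHY2 exons overlap a gene on the opposite strand, whose reads may be included because the sources used here do not give strandedness.

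Among the 11 Aux/IAA genes tested but not called, values lay on both sides of 0. The low-level and known auxin-inducible IAA29 and IAA19 had changes of -0.75 and -0.53, with adjusted p = 0.119 and adjusted p = 0.135 in limma. IAA29 was at 1.09, 0.161 and 2.02 FPKM in nrpe1-11, against 1.53, 3.57 and 2.01 FPKM in Col-0, and the groups overlapped. Without nrpe1-11 replicate 3, its highest nrpe1-11 library, IAA29 was called at -1.07. IAA2 had a change of -0.33 (adjusted p = 0.102), with -0.52 and a call after median-ratio rescaling and -0.46 and a call without Col-0 replicate 2. IAA8 had a change of -0.21 with groups that did not overlap (37.8 to 40.2 FPKM in nrpe1-11, against 40.6 to 48.2 FPKM in Col-0), and was called at -0.39 after median-ratio rescaling. On the other side were ATAUX2-11, also called IAA4 (0.38), IAA13 (0.34), AXR3, also called IAA17 (0.34), IAA6 (0.26), IAA9 (0.21) and IAA7 (0.18), and IAA14, the lateral root repressor, was at -0.06. ATAUX2-11 was called without Col-0 replicate 1 (0.57) and IAA13 without Col-0 replicate 3 (0.52). The values of IAA7 and IAA14 changed sign under an alternative, to -0.01 for IAA7 after median-ratio rescaling and to 0.11 for IAA14 without Col-0 replicate 2. As a sum, Aux/IAA genes were at 505, 485 and 470 FPKM in nrpe1-11, 490, 399 and 503 FPKM in nrpd1-3, and 475, 373 and 467 FPKM in Col-0, with all groups overlapping. The single genes that rose and fell thus stood beside a summed repressor level that did not separate the genotypes. IAA1 made up 1.61% of this sum over the 9 libraries, SHY2 3.96% and IAA16 18.3%. The sum could therefore hardly show a change in IAA1 or SHY2.

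**Figure D2:**
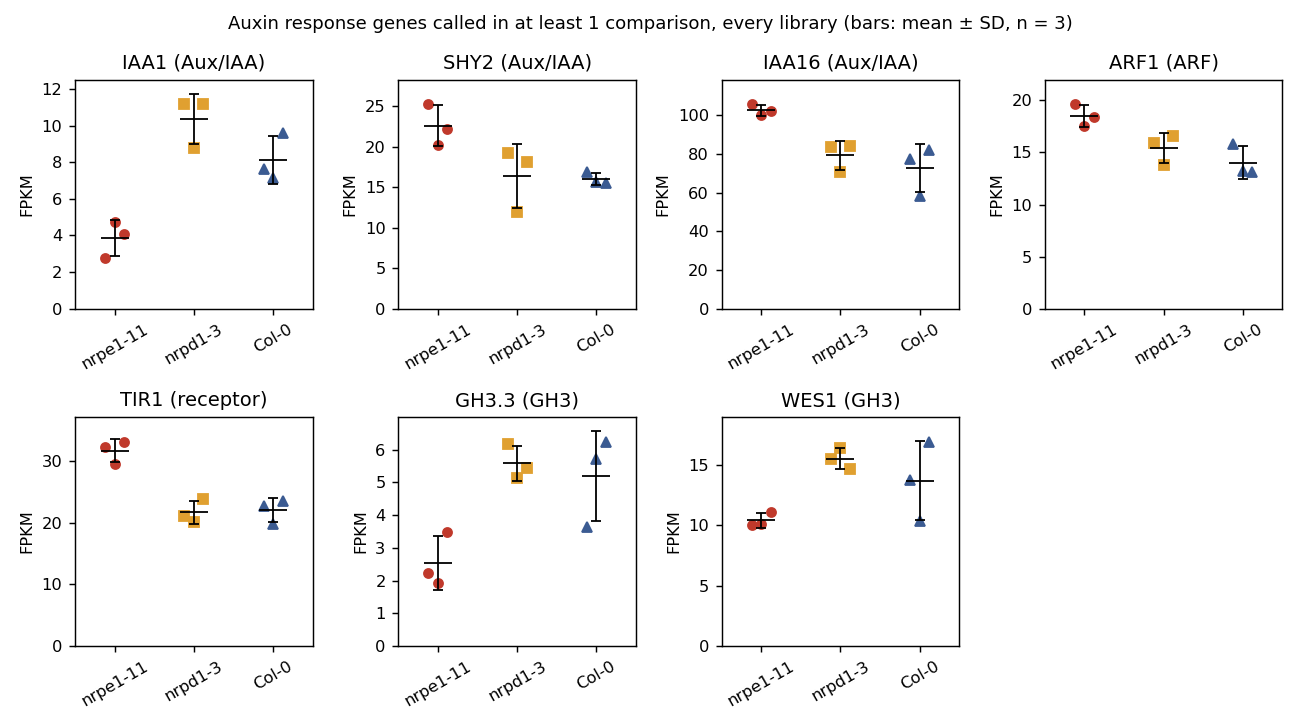
FPKM in each of the 9 libraries (points) with mean and SD of 3 (bars) for the 7 auxin response genes called in at least 1 comparison; each panel has its own axis from 0. TIR1, IAA16, SHY2 and ARF1 are highest in nrpe1-11, and IAA1, GH3.3 and WES1 have their lowest mean there.

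There were 3 pairs of Aux/IAA genes that are close neighbours and face away from each other, each with 1 gene annotated between them. For IAA1 with IAA14 and for IAA2 with IAA7 the ratio within the pair differed between nrpe1-11 and the other genotypes without overlap, and for SHY2 with AXR3 nrpe1-11 overlapped with Col-0. IAA1 and IAA14 lie 10732 bases apart on chromosome 4, IAA2 and IAA7 lie 12510 bases apart on chromosome 3, and SHY2 and AXR3 lie 6388 bases apart on chromosome 1. Ratios were computed as log2 of (FPKM + 1) of the first gene over (FPKM + 1) of the second. The added 1 draws the ratios of low-FPKM genes toward 0. The log2 ratio of IAA1 over IAA14 was -0.27 ± 0.24 in nrpe1-11, 0.94 ± 0.36 in nrpd1-3 and 0.59 ± 0.54 in Col-0 (SD, n = 3). IAA1 was thus the lower of the pair in every nrpe1-11 library and the higher in every library of the other genotypes. For IAA2 over IAA7 the log2 ratio was -1.40 ± 0.13 in nrpe1-11, -0.93 ± 0.14 in nrpd1-3 and -0.88 ± 0.10 in Col-0, without overlap of nrpe1-11 with the others. For SHY2 over AXR3 it was 1.05 ± 0.12 in nrpe1-11, 0.64 ± 0.12 in nrpd1-3 and 0.92 ± 0.51 in Col-0, and Col-0 spanned both. The ratio of IAA1 over IAA14 largely restates the fall of IAA1, since IAA14 had a change of -0.06 against Col-0. How often other gene pairs separate in this way was not counted. As single genes in nrpe1-11, 28.7% of all tested genes were fully above and 10.7% fully below Col-0. Against nrpd1-3 these shares were 19% and 14.5%. The pair ratios are given as a description, without a test.

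The promoters of the 4 members called in nrpe1-11 against both Col-0 and nrpd1-3 are shown, and these members include both directions of change. Each is the 250 bases before the annotated gene start in TAIR10.1, written 5′ to 3′ on the gene's strand, with capitals at the auxin response elements TGTCTC and TGTCGG, to which ARFs bind, found on either strand (GAGACA and CCGACA when read on the other strand).
IAA1: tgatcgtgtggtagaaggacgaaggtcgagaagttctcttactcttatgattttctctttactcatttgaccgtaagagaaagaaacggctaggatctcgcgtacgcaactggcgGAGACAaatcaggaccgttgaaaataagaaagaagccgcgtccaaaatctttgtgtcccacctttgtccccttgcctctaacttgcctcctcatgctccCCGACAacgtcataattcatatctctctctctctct
IAA16: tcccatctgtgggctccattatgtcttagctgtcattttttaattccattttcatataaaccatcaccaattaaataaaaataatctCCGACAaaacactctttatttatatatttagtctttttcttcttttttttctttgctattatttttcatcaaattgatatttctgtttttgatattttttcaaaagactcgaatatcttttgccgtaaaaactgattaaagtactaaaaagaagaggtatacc
TIR1: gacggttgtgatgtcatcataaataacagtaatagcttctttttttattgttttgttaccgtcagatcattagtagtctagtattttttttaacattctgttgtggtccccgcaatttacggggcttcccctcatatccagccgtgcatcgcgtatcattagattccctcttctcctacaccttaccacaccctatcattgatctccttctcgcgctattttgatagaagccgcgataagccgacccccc
GH3.3: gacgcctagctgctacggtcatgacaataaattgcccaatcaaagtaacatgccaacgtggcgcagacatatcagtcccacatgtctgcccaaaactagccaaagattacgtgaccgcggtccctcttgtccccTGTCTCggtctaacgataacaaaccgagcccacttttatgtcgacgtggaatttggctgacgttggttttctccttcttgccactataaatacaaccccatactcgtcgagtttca
The windows are chr4:8360746-8360995 (plus strand) for IAA1, chr3:1290892-1291141 (minus strand) for IAA16, chr3:23276631-23276880 (minus strand) for TIR1 and chr2:9866563-9866812 (minus strand) for GH3.3. IAA1, which fell, held 1 match to each motif, and GH3.3, which also fell, held 1 match to TGTCTC. IAA16, which rose, held 1 match to TGTCGG, and TIR1, which rose, held neither within this window. TGTCTC was present in 250 bases before 24.2% of the 33 members, against 10.9% of 27443 protein-coding genes. By class these were 5 of 15 Aux/IAA genes, 1 of 12 ARFs, 0 of 3 receptors and 2 of 3 GH3 genes. TGTCGG was present before 18.2% of the members, against 4.16% of protein-coding genes. Within 1000 bases the shares were 45.5% of members against 39.6% of genes for TGTCTC, and 27.3% against 14.6% for TGTCGG. A match is a stretch of letters and not a measured binding site, and a missing match says nothing about the factor.

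The 12 ARF genes encode the DNA-binding factors themselves. Of the 12, 1 was called higher and 0 lower in nrpe1-11 against Col-0 (8.33%, beside 21.7% of all tested genes), 5 had all nrpe1-11 libraries above all Col-0 libraries and 0 all below (28.7% and 10.7% of all tested genes), with a median change of 0.17, the same to 2 decimals as that of all tested genes. ARF1 (AT1G59750, chr1:21979289-21984433, plus strand), a repressor-type ARF, was at 19.6, 17.5 and 18.4 FPKM in nrpe1-11, against 15.8, 13.2 and 13.1 FPKM in Col-0. The groups did not overlap, and the change was 0.38 (SE 0.121, adjusted p = 0.036 in limma). Relative to the median gene it was 0.21, the call was lost after median-ratio rescaling (0.20), after quantile normalization (0.25) and without any 1 of nrpe1-11 replicates 1, 2 and 3 and Col-0 replicates 2 and 3 (0.34 to 0.42), and ARF1 exons overlap a gene on the opposite strand.

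The 7 repressor-type ARFs had a median change of 0.30 and the 5 activator-type ARFs, none of them called, had a median of 0.16. The order of these medians rested on 1 library, since without nrpe1-11 replicate 1 they were 0.096 for the repressor type and 0.18 for the activator type, and after median-ratio rescaling they were 0.14 and -0.01. ARF2 hardly differed between genotypes, with 51.3, 52.2 and 50.8 FPKM in nrpe1-11, 52.9, 50.0 and 51.2 FPKM in nrpd1-3, and 49.6, 45.9 and 48.9 FPKM in Col-0. Its change in nrpe1-11 against Col-0 was 0.09, with a 95% interval of -0.09 to 0.28, and -0.09 after median-ratio rescaling. The miR160 targets ARF10, ARF17 and ARF16 had changes of 0.37, 0.36 and -0.06. ARF10, known for its part in root cap formation, was at 3.83, 4.58 and 4.02 FPKM in nrpe1-11, against 3.17, 2.73 and 2.99 FPKM in Col-0. The ARF10 groups did not overlap, but the gene was not called (adjusted p = 0.166 in limma), and ARF17 was high in nrpe1-11 replicate 1 (4.34 FPKM) and close to Col-0 in the other 2 (2.48 and 1.75 FPKM, against 1.76 to 2.15 FPKM in Col-0).

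The miR167 targets ARF6 and ARF8, activator-type factors of flower maturation, had changes of 0.18 and -0.00, and ARF8 was at 3.46 to 4.16 FPKM in nrpe1-11, against 3.43 to 4.13 FPKM in Col-0. The targets of TAS3-derived siRNAs, ARF2, ETT and ARF4, had changes of 0.09, 0.02 and 0.30. ARF4, which acts with ETT in organ polarity, was at 5.25 to 6.30 FPKM in nrpe1-11, against 3.83 to 5.10 FPKM in Col-0, without overlap and without a call (adjusted p = 0.184 in limma). The remaining activators MP (also called ARF5), known for embryo patterning, and the lateral root factors NPH4 (also called ARF7) and ARF19 had changes of 0.03, 0.16 and 0.23. For MP and ETT the sign turned under each of the 3 scalings, and for NPH4 and ARF2 after median-ratio rescaling. The summed ARF level was 122, 122 and 119 FPKM in nrpe1-11, 115, 106 and 112 FPKM in nrpd1-3, and 112, 102 and 107 FPKM in Col-0. The nrpe1-11 sums lay above those of the other genotypes without overlap. As single genes, 28.7% of all tested genes did so against Col-0 and 19% against nrpd1-3. After median-ratio rescaling the ARF median change against Col-0 was -0.0008, with 6 values above 0 and 6 below. The ratio of summed Aux/IAA to summed ARF level was 4.15, 3.97 and 3.96 in nrpe1-11, 4.26, 3.78 and 4.49 in nrpd1-3, and 4.26, 3.67 and 4.37 in Col-0, so the genotypes overlapped in it.

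All 3 receptor genes had values above 0 in nrpe1-11 against Col-0, and 1 of them was called. Of all 18212 tested genes 12792 had values above 0, and 14.2% were called higher. TIR1 (AT3G62980, chr3:23273065-23276630, minus strand), the founding auxin receptor, was at 32.2, 29.5 and 33.1 FPKM in nrpe1-11, 21.0, 20.1 and 23.8 FPKM in nrpd1-3, and 22.7, 19.8 and 23.4 FPKM in Col-0. The lowest nrpe1-11 library exceeded the highest of the other 6 libraries, and the nrpe1-11 mean was 1.44 times the Col-0 mean. TIR1 rose by 0.51 (SE 0.110, adjusted p = 0.0043 in limma), or 0.33 relative to the median gene, and was called under every alternative except the threshold of at least 2-fold. AFB2 was at 18.3, 16.2 and 15.1 FPKM in nrpe1-11, 12.5, 11.8 and 14.6 FPKM in nrpd1-3, and 14.4, 11.2 and 14.2 FPKM in Col-0. Its nrpe1-11 libraries were also the 3 highest, with a change of 0.30 against Col-0 that was not called (adjusted p = 0.126 in limma). AFB3, at 10.6 to 13.1 FPKM in nrpe1-11, against 9.32 to 11.2 FPKM in Col-0, overlapped between groups and had a change of 0.22 (adjusted p = 0.238). The signs of all 3 receptors stayed above 0 under each scaling, with AFB3 lowest at 0.05 after median-ratio rescaling. Like SHY2 and ARF1, the members IAA9, IAA13, MP, NPH4 and AFB3 have exons that overlap a gene on the opposite strand, and ARF19 overlaps one on the same strand, so their values may include reads of those genes. As a sum the receptors were at 61.1, 58.8 and 60.9 FPKM in nrpe1-11, 44.7, 43.0 and 50.7 FPKM in nrpd1-3, and 46.4, 41.3 and 48.9 FPKM in Col-0. The nrpe1-11 sums did not overlap with those of the other genotypes. As single genes, 28.7% of all tested genes were fully apart in this direction against Col-0 and 19% against nrpd1-3. The miR393 sites shown above are identical in AFB2 and AFB3 and less paired in TIR1. The 95% intervals of the changes against Col-0 overlapped, at 0.27 to 0.74 for TIR1, 0.01 to 0.59 for AFB2 and -0.05 to 0.49 for AFB3. A call for TIR1 alone thus does not show that the 3 changes differ. Whether the pairing of the sites bears on these changes was not tested.

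**Figure D3:**
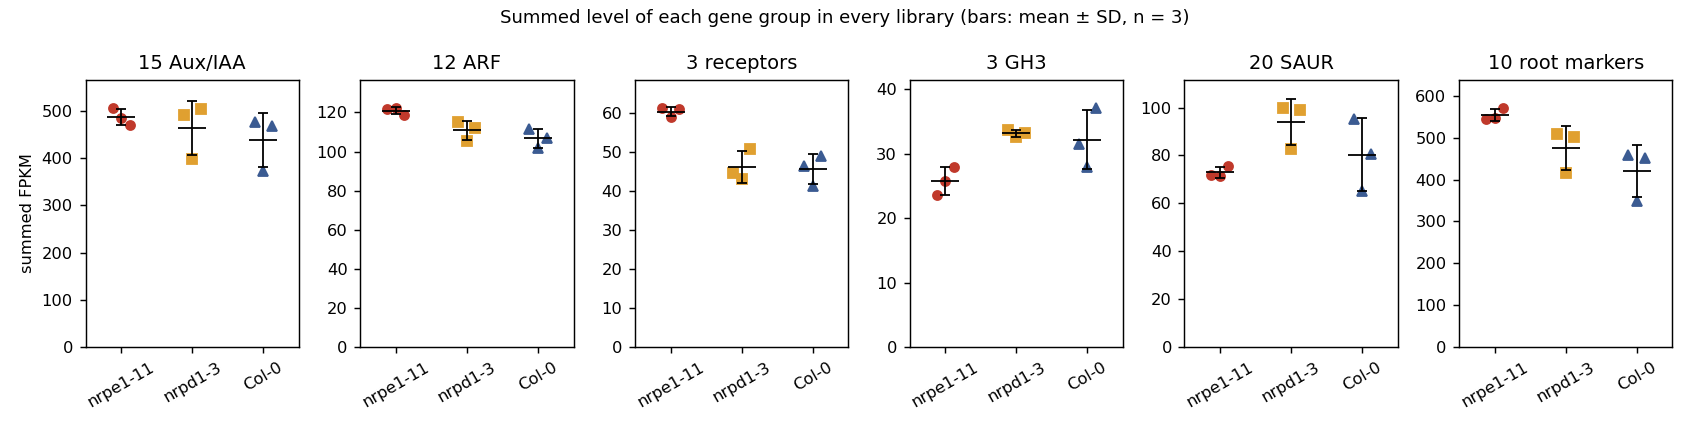
Summed FPKM of each gene group in every library (points), with mean and SD of 3 (bars), for the 4 classes of members and for 20 SAUR genes and 10 root markers; each panel has its own axis from 0. Receptor sums in nrpe1-11 (58.8 to 61.1 FPKM) lie above all other libraries, and GH3 sums in nrpe1-11 (23.7 to 27.9 FPKM) lie below them, by a small margin for Col-0 replicate 2.

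All 3 GH3 genes had values below 0 in nrpe1-11 against Col-0, and 1 of the 3 was called. Of all 18212 tested genes 5420 had values below 0, and 7.54% were called lower. GH3.3 (AT2G23170, chr2:9863855-9866562, minus strand), an auxin-induced amido synthetase, was at 2.23, 1.93 and 3.49 FPKM in nrpe1-11, 6.17, 5.14 and 5.43 FPKM in nrpd1-3, and 3.65, 5.72 and 6.25 FPKM in Col-0. Its highest nrpe1-11 library lay just below its lowest Col-0 library. GH3.3 fell by 0.80 on the log2(FPKM + 1) scale (SE 0.207, adjusted p = 0.0124 in limma), with a mean 0.49 of that of Col-0. The call was lost without nrpe1-11 replicate 2 (-0.68, adjusted p = 0.057), without Col-0 replicate 3 (-0.68, adjusted p = 0.055) and without an expression filter (adjusted p = 0.052). WES1 (AT4G27260, chr4:13653579-13656285, plus strand), which acts on auxin and is also known to act on salicylic acid, was at 9.98, 10.1 and 11.1 FPKM in nrpe1-11, against 13.7, 10.4 and 16.9 FPKM in Col-0. Col-0 replicate 2 fell among the nrpe1-11 libraries, the change was -0.34 and it was not called (adjusted p = 0.120), whereas without Col-0 replicate 2 it was -0.51 and called. DFL1, a close relative known from a dwarf light-response mutant, was at 11.5 to 13.7 FPKM in nrpe1-11, against 11.9 to 14.2 FPKM in Col-0, with a change of -0.05 and a 95% interval of -0.32 to 0.22. The summed GH3 level was 23.7, 25.8 and 27.9 FPKM in nrpe1-11, 33.7, 32.6 and 33.3 FPKM in nrpd1-3, and 31.6, 28.0 and 37.1 FPKM in Col-0.

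In nrpd1-3 seedlings, compared with Col-0, none of the 32 tested members was called in limma, as was the case for all 18212 tested genes (0% called). At an unadjusted p under 0.05 there were 1284 genes, 7.05% of those tested, and none of them was a member. The members' changes ran from -0.38 (ETT) to 0.32 (IAA1), with a median of 0.03, beside 0.11 over all tested genes. ETT, a repressor-type ARF of flower and leaf patterning, was at 3.04, 3.57 and 3.25 FPKM in nrpd1-3, against 4.10, 6.08 and 3.80 FPKM in Col-0. All nrpd1-3 libraries were lower, with an adjusted p = 0.681 in limma, the change was -0.21 without Col-0 replicate 2, the highest Col-0 library, and ARF2 was the 1 member with all nrpd1-3 libraries higher (50.0 to 52.9 FPKM in nrpd1-3, against 45.9 to 49.6 FPKM in Col-0). Over all tested genes the nrpd1-3 and Col-0 libraries did not overlap for 1.56% in the lower and 10.1% in the higher direction. TIR1 and SHY2 were at changes of -0.02 and 0.01, with 95% intervals of -0.25 to 0.21 and -0.32 to 0.33. A p that missed the threshold does not show that nrpd1-3 and Col-0 had the same levels.

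The direct comparison of the mutants, nrpe1-11 against nrpd1-3, does not use the Col-0 means, although the Col-0 libraries enter the shared estimate of the spread. It gave 2 members higher and 3 lower of 32 (15.6%), where 14.7% of all tested genes were called (6.19% higher and 8.52% lower), again near the background. Libraries of the 2 mutants were fully apart for 10 higher and 4 lower members, against 19% and 14.5% of all tested genes. TIR1 rose by 0.53 (adjusted p = 0.0036) and IAA16 by 0.37 (adjusted p = 0.044), whereas IAA1 fell by 1.24 (adjusted p = 0.00015), GH3.3 by 0.91 (adjusted p = 0.0067) and WES1 by 0.53 (adjusted p = 0.025), all in limma. IAA1 was at 11.2, 8.79 and 11.2 FPKM in nrpd1-3, more than every nrpe1-11 library, and its nrpe1-11 mean was 0.373 of the nrpd1-3 mean. WES1 was at 15.4, 16.4 and 14.7 FPKM in nrpd1-3, above every nrpe1-11 library. IAA16, at 83.4, 70.6 and 83.8 FPKM in nrpd1-3, was also below every nrpe1-11 library, but its call was lost when any 1 of the 6 libraries was left out (0.29 to 0.41). WES1 lost its call without nrpe1-11 replicates 1 or 2 or nrpd1-3 replicates 1 or 2. SHY2 was at 19.2, 11.9 and 18.1 FPKM in nrpd1-3, with a change of 0.46 that was not called (adjusted p = 0.058), and ARF10 was at 3.35, 1.87 and 2.63 FPKM, with a change of 0.53 that was not called (adjusted p = 0.074). SHY2 was called without nrpd1-3 replicate 1 (0.58), after quantile normalization, after rescaling to the protein-coding sum, with the replicate block and at a mean FPKM of at least 5, and ARF10 without nrpd1-3 replicate 1 (0.67) and after the same 2 rescalings. As deposited no ARF was called in this comparison. Of the 12 ARFs 11 had values above 0, where 10679 of all 18212 tested genes did. The class median was 0.13, beside 0.06 over all tested genes, and 9 of the 12 ARFs lay above that median gene.

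Other genes of the pathway were read from lists of the remaining family members and of the steps around them, in nrpe1-11 against Col-0. The other 3 receptor genes included 2 that rose: GRH1, also called AFB1, by 0.53 (adjusted p = 0.022 in limma) and AFB5 by 0.39 (adjusted p = 0.030). GRH1 was at 14.2, 11.8 and 14.9 FPKM in nrpe1-11, against 9.89, 7.30 and 10.5 FPKM in Col-0, and AFB5 was at 22.7, 17.8 and 17.6 FPKM in nrpe1-11, against 14.2, 13.9 and 15.2 FPKM in Col-0. Both calls were lost after median-ratio rescaling (0.35 and 0.21), after quantile normalization (0.40 and 0.26) and without Col-0 replicate 2 (0.38 and 0.37), that of GRH1, whose exons overlap other loci, also without nrpe1-11 replicates 1 or 3, and that of AFB5 also without nrpe1-11 replicate 1 or Col-0 replicate 1. Of 13 genes for SCF ubiquitin ligase parts and TOPLESS co-repressors, 6 were called higher and 0 lower, with a median of 0.27, beside 14.2% higher, 7.54% lower and a median of 0.17 over all tested genes. Smallest in adjusted p were the co-repressor TPL (0.37, adjusted p = 0.012), the SKP1-like gene AT5G42190 (0.36, adjusted p = 0.018) and ECR1, which serves the modification of the ligase scaffold (0.41, adjusted p = 0.027). The call of TPL was lost without nrpe1-11 replicate 3, that of AT5G42190 without nrpe1-11 replicates 1 or 2 or Col-0 replicate 2, and that of ECR1 without nrpe1-11 replicate 1 or Col-0 replicates 1 or 2. After median-ratio rescaling 0 of these 13 were called, and without Col-0 replicate 2 there was 1.

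Further repressors and factors were mostly low. The counts called in their lists stand beside 14.2% higher and 7.54% lower over all tested genes. Of 14 other Aux/IAA genes 7 were tested and 1 rose, PAP2 (also called IAA27), by 0.72 (adjusted p = 0.0038 in limma), with 17.4, 15.7 and 14.5 FPKM in nrpe1-11, against 11.4, 7.20 and 9.43 FPKM in Col-0. Exons of PAP2, and likewise of TPL, AT5G42190, CASP1 and PYK10, overlap a gene on the opposite strand, so their values may include reads of that gene. Of 11 other ARFs 3 were tested and 0 called; the smallest p was that of ARF9, with a change of 0.27. Outside the members, the fast-response SAUR genes, small auxin-induced genes of cell expansion, had 18 of 20 tested, with 1 higher and 0 lower and a median of -0.13. Of the 18, 15 had values below 0, beside 5420 of all 18212 tested genes, whose median was 0.17. Under the 3 scalings 15 or 16 of the 18 SAUR genes had values below 0. With 1 library left out 10 to 16 did so, 10 without Col-0 replicate 1. The SAUR median then lay between -0.26 (without Col-0 replicate 2) and -0.08 (without Col-0 replicate 3). Without nrpe1-11 replicate 1, and likewise without Col-0 replicate 2, 1 SAUR gene was called lower. SAUR19 was called higher (1.19, adjusted p = 0.012) at 1.31, 3.49 and 1.66 FPKM in nrpe1-11, against 0.704, 0 and 0.360 FPKM in Col-0, while its near-identical neighbour SAUR20 was at 1.03, 2.55 and 2.33 FPKM in nrpe1-11, against 5.03, 1.97 and 4.07 FPKM in Col-0. Reads of such copies can be split between them, so single SAUR values are uncertain, and the SAUR19 call was lost without nrpe1-11 replicate 2 (0.91) or Col-0 replicate 2 (0.99). Of 5 transcription factor genes listed as auxin targets (LBD and HD-ZIP families) 2 were tested, with 0 higher and 1 lower. The auxin-induced HAT2 fell by 0.59 (adjusted p = 0.0057 in limma). HAT2 was at 8.92, 11.3 and 10.9 FPKM in nrpe1-11, against 15.4, 14.2 and 19.0 FPKM in Col-0. The other tested gene, HB-2, had a change of 0.33 in the opposite direction and was not called (adjusted p = 0.277 in limma).

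Genes that set auxin levels had calls in both directions. Of 11 other GH3 and auxin-inactivation genes 7 were tested, with 0 higher and 2 lower. Beside the counts of this and the following lists stand 14.2% of all tested genes called higher and 7.54% called lower. IAR3, an amidohydrolase that frees auxin from amino acid conjugates, was at 18.6, 19.0 and 19.2 FPKM in nrpe1-11, against 34.9, 26.1 and 33.05 FPKM in Col-0 (change -0.69, adjusted p = 0.0012 in limma). UGT74E2, a glycosyltransferase of an auxin precursor, was at 0.416, 1.00 and 1.26 FPKM in nrpe1-11, against 3.26, 2.74 and 2.52 FPKM in Col-0 (change -1.05, adjusted p = 0.0055). Of 13 auxin synthesis genes 5 were tested and none was called, with the smallest p for YUC9 (0.53, adjusted p = 0.082). Of 12 tested transport genes the influx carriers LAX3 (0.60, adjusted p = 0.012), LAX1 (0.48, adjusted p = 0.013) and AUX1 (0.43, adjusted p = 0.019) rose. The efflux carrier PIN7, named after its value was seen because it was the 1 transport gene that fell, changed by -0.30 (adjusted p = 0.042), a call that was lost without any 1 of nrpe1-11 replicates 1, 2 and 3 and Col-0 replicates 1 and 3 (-0.33 to -0.26). LAX1 and AUX1 were not called after median-ratio rescaling (0.30 and 0.25) or quantile normalization (0.35 and 0.30), and LAX1 was not called without nrpe1-11 replicate 2 or Col-0 replicate 1, nor AUX1 without nrpe1-11 replicates 2 or 3 or Col-0 replicate 1. Of 11 genes for small RNA control of the pathway 5 were tested and none was called (smallest p for DCL4, 0.34, adjusted p = 0.168), and TAS3 was at 0.10.

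**Figure D4:**
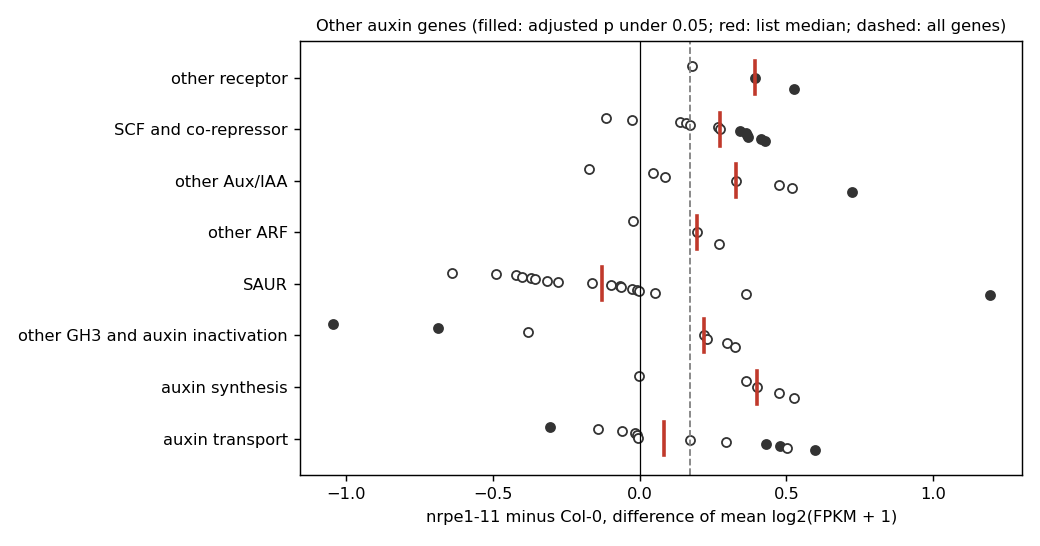
Difference of mean log2(FPKM + 1), nrpe1-11 minus Col-0, for each tested gene (points) of 8 further lists of auxin genes; filled points have an adjusted p under 0.05 in limma, red lines are list medians and the dashed line is the median of all tested genes. Receptor and SCF lists have medians of 0.39 and 0.27, the SAUR list one of -0.13.

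Markers of organs and cells that differ in auxin response were read in the same comparison. The summed level of 10 root markers was 544.6 to 570.3 FPKM in nrpe1-11, 416.0 to 510.1 FPKM in nrpd1-3, and 347.9 to 459.8 FPKM in Col-0, carried mostly by PYK10, and none of the 10 was at 0 in all libraries. Of 9 tested root markers 2 rose (CASP1 and PYK10) and 1 fell (IRT1), and 8 of 9 had values above 0. Among all 18212 tested genes 14.2% were called higher and 7.54% lower, and 12792 had values above 0. The call of CASP1 was lost without nrpe1-11 replicates 2 or 3 or Col-0 replicate 3, that of PYK10 without nrpe1-11 replicate 3 or Col-0 replicate 2, and that of IRT1 without nrpe1-11 replicates 1 or 2 or Col-0 replicates 2 or 3. After median-ratio rescaling CASP1 and PYK10 were not called (0.46 and 0.23), CASP1 was not called after quantile normalization (0.50), and without an expression filter none of the 3 was called. The 4 shoot apex markers summed to 7.20 to 8.22 FPKM in nrpe1-11, 4.54 to 6.57 FPKM in nrpd1-3, and 4.06 to 5.75 FPKM in Col-0, with WUS at 0 in all 9 libraries and neither of the 2 tested called. The 5 dividing-cell markers summed to 17.2 to 19.2 FPKM in nrpe1-11, 14.0 to 18.3 FPKM in nrpd1-3, and 13.5 to 14.1 FPKM in Col-0, with none called. For all 3 lists the nrpe1-11 sums as deposited lay above the Col-0 sums without overlap. As single genes, 28.7% of all tested genes did so, and the median change over all tested genes was 0.17. The part of these markers in the changes of the auxin genes was not tested.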

How the data were processed

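Polyadenylated RNA of 9 seedling libraries was measured, with plants grown under 16 h of light, per the labels. Per the submitters' processing notes, the tools were StringTie 2.1.7, HISAT2 2.2.1 and fastp 0.23.2, and the genome build was TAIR10; order and settings are not given. The deposited values were FPKM per gene, computed by the authors and passed on in 1 table of 37929 lines for 37898 genes, because AT1G58520 stood on 32 lines, of which the line with values above 0 in every library was kept. The sources used here do not give read numbers or strandedness. The aligned amount was estimated from the steps between low FPKM values, searched within a preset range. Per library, 51.4% to 64.7% of low values lay within 0.1 of a step.

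From these values, log2(FPKM + 1) was fitted in limma 3.58.1 (R 4.3.3) using all 9 libraries, 1 mean for each genotype, a trend in the variance and two-sided moderated tests. Benjamini-Hochberg adjustment covered the 18212 tested genes, and the fit was tested on simulated data. The members and lists were chosen with earlier results of these data known. Members called in any comparison, or with the smallest p of their class, were described in full, and from each further list up to 3 called genes with the smallest adjusted p, or the 1 with the smallest p, were named. Alternatives concerned scaling (median-ratio, quantile, or the protein-coding sum), the filter (none, or mean FPKM from 5), the pseudocount (0.1), the fit (replicate block, robust empirical Bayes, or just the 6 libraries compared), a 2-fold threshold and the removal of single libraries. Coordinates and sequences came from the TAIR10.1 genome and its RefSeq annotation, in which all 37898 identifiers were found; the expression table holds no coordinates. Tables and figures were made with python 3.11.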

Additional observations from a re-analysis of the deposited data

How the results depend on the processing

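The libraries limit what could be called: genes such as IAA29, IAA6 and MP lay near 1 to 3 FPKM, with wide 95% intervals, and with 3 libraries a genotype a call can rest on 1 library. Which scaling is right is not known from the files. The calls of IAA1, IAA16 and TIR1 in nrpe1-11 against Col-0 held under every alternative except at least 2-fold, and IAA1 in nrpe1-11 against nrpd1-3 held under all of them. In nrpd1-3 against Col-0, 0 genes were called under any alternative. Where values below differ from those of the report, the cause was not tested.

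In nrpe1-11 against Col-0, all genes called higher numbered 2581, but 1177 after median-ratio rescaling, 1625 after quantile normalization, 126 at at least 2-fold and 1593 to 2359 with 1 library left out (1644 without Col-0 replicate 2). Those called lower numbered 1374, but 2168 after median-ratio rescaling and 534 at at least 2-fold. Members called higher numbered 4, but 2 after median-ratio rescaling, 2 after quantile normalization, 0 at at least 2-fold and 2 to 4 with 1 library left out. Members called lower numbered 2, but 1 without an expression filter, 1 at a mean FPKM of at least 5, which leaves GH3.3 untested, 5 after median-ratio rescaling, 5 after quantile normalization, 4 after rescaling to the protein-coding sum, 0 at at least 2-fold and 1 to 4 with 1 library left out.

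In nrpe1-11 against nrpd1-3, all genes called higher numbered 1128, but 1800 after rescaling to the protein-coding sum, 61 at at least 2-fold and 674 to 906 with 1 library left out. The share of calls that were higher was 42.1%, against 51.8% after rescaling to the protein-coding sum and 31.4% without nrpd1-3 replicate 2. Those called lower numbered 1551, but 642 at at least 2-fold. Members called higher numbered 2, but 1 with a pseudocount of 0.1, 1 without an expression filter, 4 after quantile normalization, 5 after rescaling to the protein-coding sum, 0 at at least 2-fold and 1 to 2 with 1 library left out. Members called lower numbered 3, but 5 after median-ratio rescaling and 1 at at least 2-fold.

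Values near 0 that were not called changed sign as follows in nrpe1-11 against Col-0. After median-ratio rescaling IAA7 was -0.0080, ARF2 -0.092, ETT -0.14, MP -0.11 and NPH4 -0.012. After quantile normalization ARF2 was -0.045, ETT -0.10 and MP -0.065, and after rescaling to the protein-coding sum ETT was -0.028 and MP -0.0099. With 1 library left out, ETT ranged from -0.10 to 0.19, MP from -0.12 to 0.15, ARF8 from -0.065 to 0.058, ARF16 from -0.31 to 0.086, IAA14 from -0.23 to 0.11 and DFL1 from -0.13 to 0.024. In nrpd1-3 against Col-0, SHY2 was -0.11 after median-ratio rescaling, -0.12 after quantile normalization and -0.066 after rescaling to the protein-coding sum, and GH3.3 was -0.00014 after quantile normalization. With 1 library left out, SHY2 ranged there from -0.12 to 0.21, IAA16 from -0.0089 to 0.23, TIR1 from -0.091 to 0.027 and GH3.3 from -0.087 to 0.23.

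The replicate numbers did not pair the libraries: same-numbered libraries of different genotypes had correlations of -0.072 to 0.146 in their deviations from the genotype means, differently numbered ones -0.124 to 0.0695, and 0 of 9 libraries correlated best with their own number in both other groups. With the replicate block, calls numbered 4428 in nrpe1-11 against Col-0 (2989 higher and 1439 lower), 2996 in nrpe1-11 against nrpd1-3 (1344 higher and 1652 lower) and 0 in nrpd1-3 against Col-0. Among members the block gave 4 higher and 3 lower in nrpe1-11 against Col-0, the added call being IAA2 (-0.33), and 3 higher and 4 lower in nrpe1-11 against nrpd1-3.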
